A study of Mus musculus with 4 samples.

Results

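The chromosome 14 granzyme cluster of the mouse holds Gzmb, Gzmc, Gzmd, Gzme, Gzmf, Gzmg and Gzmn, and these 7 of the 32285 genes in the deposited tables were followed here by symbol in single cells of injured muscle. They were chosen by earlier values of these data, namely their UMIs (unique molecular identifiers, counted captured transcripts) in mesenchymal cells, so their levels in those cells are given as a description with no test. A mesenchymal cell was a barcode with 0 UMIs of Ptprc, the pan-leukocyte antigen CD45, and at least 10 UMIs of Col1a1, the main chain of type I collagen. This gate took 28482 of the 52852 cells kept after quality control. It held 7643 cells of the Uninjured library, 1936 at 1 day post injury (dpi), 3578 at 3 dpi and 15325 at 7 dpi.

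The study followed heterotopic ossification, the formation of cartilage and bone in soft tissue, after cardiotoxin injury of the tibial muscle. All 4 libraries came from C57BL/6 mice of genotype Nse-Bmp4 aged 6 to 8 weeks, in which the neuron-specific enolase promoter drives the bone morphogenetic protein BMP4, and each pooled 3 muscles. The Uninjured mice carried the transgene as well, and no wild-type library was analysed here. With 1 library at each time, the time point and the library cannot be told apart, no p-value was computed, and all intervals are exact 95% intervals that cover counting error only. The share that a count of 0 allows is given as 3 cells of the total. The libraries held 91146335 to 129007669 UMIs, and the median over cells fell from 8629 UMIs in the Uninjured library to 3083 at 7 dpi. Each pair of libraries shared 30 to 95 barcodes.

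Granzymes are serine proteases that natural killer (NK) cells and cytotoxic T cells store in secretory granules and deliver, with the pore-forming protein perforin (Prf1), into target cells. Granzyme B, the product of Gzmb, cleaves after aspartate and triggers apoptosis. The other members of the mouse cluster are known mainly from strongly activated or uterine NK cells, and Gzmn from the testis, so a granzyme transcript in muscle is ordinarily read as a sign of lymphocytes.

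All 7 genes lie on the minus strand of chromosome 14 within 144635 bases of GRCm38, in the order Gzme (56117626 to 56120625), Gzmd (56129556 to 56132608), Gzmg (56156582 to 56159579), Gzmn (56165797 to 56174599), Gzmf (56205263 to 56211417), Gzmc (56231441 to 56234656) and Gzmb (56258838 to 56262260). The members are close copies of each other. The Gzmd and Gzme transcripts were 90.4% identical in GENCODE M21, whereas Gzmb was 48.1% to 51.2% identical to the others. Of all 50-base windows of the transcript, 21.9% in Gzmd, 20.6% in Gzme and 19.8% in Gzmg also occurred in another member, against 0% in Gzmb. For 90-base windows these shares were 2.17%, 0.967% and 1.59%. Reads within such windows cannot be assigned to 1 gene, so the split of UMIs among Gzmd, Gzme and Gzmg is less certain than their sum.

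Gzmn was 77.1% to 78.3% identical to Gzmd, Gzme, Gzmf and Gzmg in its transcript, and 48.8% to 51.2% identical to them in its promoter. The sequences of the 250 bases before the RefSeq start (GRCm38.p6, minus strand) are shown for a member abundant in mesenchymal cells (Gzmd), for the member that NK cells shared with them (Gzmc), and for the pair whose promoters were least like the rest (Gzmb and Gzmn). They lie at chr14:56132594-56132843 (Gzmd), chr14:56234658-56234907 (Gzmc), chr14:56262335-56262584 (Gzmb) and chr14:56174600-56174849 (Gzmn). Capitals mark TGTGGT, the core of the Runx motif, or its reverse complement.
Gzmd: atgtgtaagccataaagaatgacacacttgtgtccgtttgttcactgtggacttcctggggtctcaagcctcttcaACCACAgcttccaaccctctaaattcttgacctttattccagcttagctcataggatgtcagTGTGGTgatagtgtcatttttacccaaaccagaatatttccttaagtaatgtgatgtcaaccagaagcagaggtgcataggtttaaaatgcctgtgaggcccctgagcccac
Gzmc: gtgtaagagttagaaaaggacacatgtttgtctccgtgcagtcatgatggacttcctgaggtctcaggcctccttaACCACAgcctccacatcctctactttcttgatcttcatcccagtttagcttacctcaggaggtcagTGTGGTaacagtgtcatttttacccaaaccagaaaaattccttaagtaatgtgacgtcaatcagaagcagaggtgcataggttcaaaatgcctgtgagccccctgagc
Gzmb: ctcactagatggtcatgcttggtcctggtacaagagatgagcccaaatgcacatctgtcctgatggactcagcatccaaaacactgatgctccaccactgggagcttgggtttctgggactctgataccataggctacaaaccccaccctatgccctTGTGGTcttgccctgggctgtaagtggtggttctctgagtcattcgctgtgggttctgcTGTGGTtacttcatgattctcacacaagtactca
Gzmn: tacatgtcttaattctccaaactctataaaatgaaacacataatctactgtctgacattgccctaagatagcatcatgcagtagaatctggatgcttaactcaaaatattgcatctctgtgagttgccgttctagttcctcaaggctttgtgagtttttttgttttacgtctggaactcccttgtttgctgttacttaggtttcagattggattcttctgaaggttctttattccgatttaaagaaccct
Runx factors include Runx2 of bone and Runx3 of cytotoxic lymphocytes.

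The Gzmd and Gzme promoters were 94.8% identical, Gzmc and Gzmd 81.3%, and Gzmd and Gzmg 78.9%. Gzmb had 47.3% to 54.5% identity to the other 6 promoters. The letters TGTGGT occurred 2 times in 6 of the 7 promoters, with Gzmn the exception. The starts of the pair were 62 bases apart in Gzmd, Gzme, Gzmf and Gzmg, 66 in Gzmc and 59 in Gzmb. The Gzmb pair was arranged otherwise, with both matches on the strand of the gene, at -93 and -34. In Gzmc, Gzmd, Gzme, Gzmf and Gzmg the first was the reverse complement, at -195 to -174. Those promoters are 71.5% to 94.8% identical, so their matches are not separate occurrences. Of 32851 promoters, 14.05% held the letters on either strand and 418 (1.27%) held them at least 2 times. An AP-1 motif (TGANTCA) occurred in Gzmb alone, beside 6.75% of all promoters, and TATAAA in Gzmn alone, beside 12.4%. The TEAD motif GGAATG and the CArG box that serum response factor binds were found in none of the 7 windows, and in 12.6% and 1.47% of all promoters. A match of letters is a description and not a binding site.

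In mesenchymal cells the 6 members other than Gzmb were near 0 until 3 dpi and abundant at 7 dpi. Their summed UMIs were 3 in the Uninjured library, 0 at 1 dpi, 81 at 3 dpi and 8969 at 7 dpi. Per 1000000 UMIs of all genes in these cells (CPM, not scaled to transcript length) this was 0.0405, 0, 1.81 and 108.9, the last with an interval of 106.7 to 111.2. The level at 7 dpi stood above every other library for each of these members, and the 3 dpi library stood above both earlier ones for their sum. The 7 dpi sum was 60.1-fold that of 3 dpi (interval 48.3 to 75.7).

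Gzme gave the most UMIs of the cluster, with 2, 0, 36 and 3650 UMIs in the Uninjured, 1, 3 and 7 dpi libraries. Its 44.3 CPM at 7 dpi was 55.0-fold its 0.806 CPM at 3 dpi (39.7 to 78.7). Gzmd, its nearest copy, gave 0, 0, 16 and 3294 UMIs. For Gzmd the 7 dpi level was 40.0 CPM, 112-fold that at 3 dpi (68.7 to 196). Both genes passed 3 UMIs first at 3 dpi, where Gzme was at least 5.96-fold and Gzmd at least 2.65-fold above the level of 3 UMIs at 1 dpi. Of the 16 Gzmd UMIs at 3 dpi, 10 lay in 1 cell, so the Gzmd ratios rest largely on that cell.

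Gzmc gave 0, 0, 5 and 951 UMIs and reached 11.5 CPM, 103-fold the 3 dpi level (44.1 to 318). Its 5 UMIs at 3 dpi lay in 3 cells. Gzmg gave 0, 0, 0 and 770 UMIs and reached 9.35 CPM, at least 139-fold the level of 3 UMIs at 3 dpi. Gzmf was the least abundant member, with 0, 0, 0 and 77 UMIs and 0.935 CPM, at least 13.9-fold that level. Gzmc, Gzmg and Gzmf thus came almost wholly from the 7 dpi library.

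Gzmn passed 3 UMIs first at 3 dpi, as Gzme and Gzmd did. It gave 1, 0, 24 and 227 UMIs, or 0.537 CPM at 3 dpi and 2.76 CPM at 7 dpi, a 5.13-fold difference (3.36 to 8.17). Gzmb, the lymphocyte granzyme, gave 5, 8, 16 and 184 UMIs, and was the member present in mesenchymal cells of all 4 libraries. Its level was 0.994-fold between 3 and 1 dpi (0.401 to 2.68) and 6.24-fold between 7 and 3 dpi (3.74 to 11.1), where it reached 2.23 CPM. For Gzmb and Gzmn the ratio of 7 to 3 dpi was below 10-fold in value, and for Gzmc, Gzmd and Gzme it was 55.0-fold or more.

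**Figure D1:**
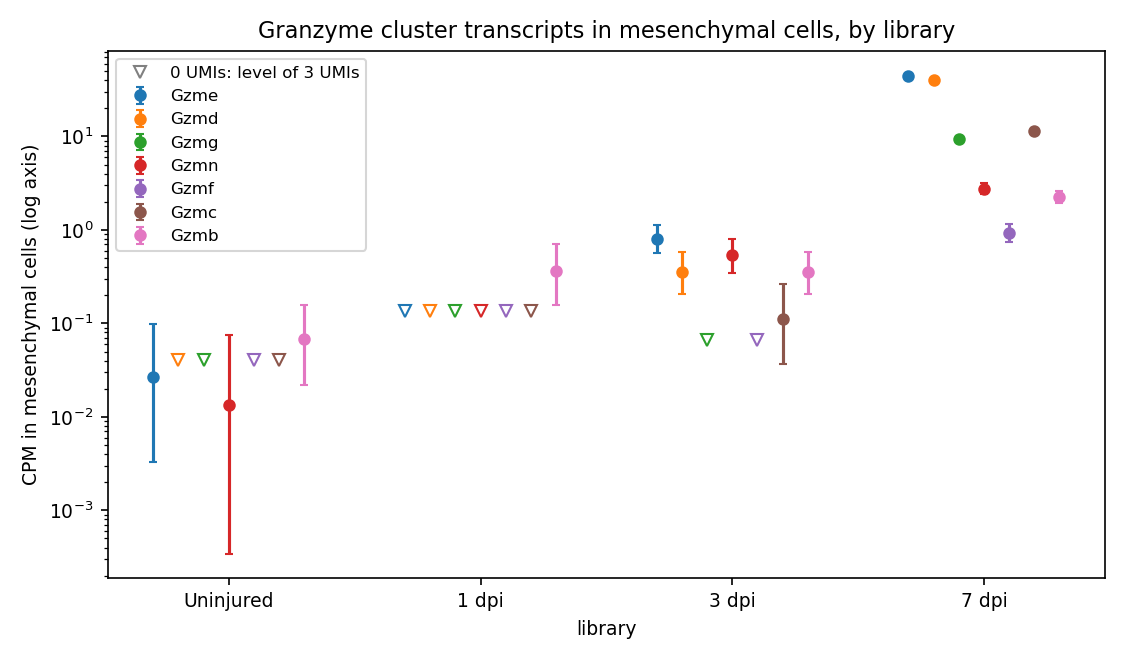
CPM (log axis) of each of the 7 granzyme genes in mesenchymal cells of the Uninjured, 1, 3 and 7 dpi libraries, with exact 95% counting intervals, and open triangles at the level of 3 UMIs where a gene was at 0. Every member was highest at 7 dpi, from 0.935 CPM for Gzmf to 44.3 CPM for Gzme.

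Among all genes with at least 10 UMIs in either library of a pair, 9.03% were at least 2-fold higher at 1 dpi than in the Uninjured library, and 0 of the 7 granzymes had enough UMIs to be counted. Between 3 and 1 dpi, 3 of the 4 counted members (Gzmd, Gzme and Gzmn) were past 2-fold, beside 9.25% of genes. Gzmd was counted there on 16 UMIs, of which 10 lay in 1 cell. Between 7 and 3 dpi, and between 7 dpi and the Uninjured library, 7 of 7 were past 2-fold, beside 16.9% and 22.5% of genes. On the log2(CPM + 1) scale the median member was 3.37 higher at 7 than at 3 dpi, beside 0.00144 for all genes. These are the contrasts that chose the genes, and nothing is read from the counts.

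The fraction of mesenchymal cells with a UMI of the 6 members rose from 1.34% (48 cells) at 3 dpi to 13.8% (2108 cells, 13.2% to 14.3%) at 7 dpi, although the cells were shallower, with a median of 3346 UMIs against 10357.5. At 7 dpi Gzme was seen in 1164 cells (7.60%), Gzmd in 983 (6.41%), Gzmc in 614 (4.01%), Gzmg in 213, Gzmn in 197, Gzmb in 158 (1.03%) and Gzmf in 36. After each cell was thinned to 1000 UMIs, which left out 0, 0, 23 and 808 shallower cells in order of time, 834 of 14517 cells (5.74%, 5.37% to 6.14%) held a UMI of the 6 at 7 dpi. At 3 dpi it was 1 of 3555 cells (0.0281%). None was left in the earlier libraries, at 0 of 7643 Uninjured cells, which allows up to 0.0393%, and 0 of 1936 at 1 dpi, which allows up to 0.155%.

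Few cells carried most of the transcripts. Of the 2108 positive cells at 7 dpi, 1161 (55.1%) had 1 UMI of the 6 members, while 170 cells with 10 or more held 5171 UMIs, 57.7% of the total. The highest cell held 210. The highest count of a single gene in a cell was 112 for Gzmd, 94 for Gzme, 64 for Gzmg, 33 for Gzmc and 15 for Gzmf, against 5 for Gzmb and 3 for Gzmn. At 3 dpi the highest cell already held 15. Gzmb and Gzmn were thus spread in 1 to 5 UMIs a cell, whereas Gzmd, Gzme and Gzmg were concentrated in strongly positive cells.

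The level per cell rose with depth in part. Across 5 equal groups of 3065 cells ordered by depth at 7 dpi, the summed level of the 6 members was 71.2, 75.8, 95.6, 104.5 and 122.5 CPM, and 6.20%, 9.20%, 15.04%, 17.1% and 21.3% of cells were positive. Thinned to 1000 UMIs the shares were 5.54%, 5.22%, 6.72%, 5.58% and 5.61%, with no order by depth.

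The deepest barcodes, left out of all values above for lying more than 2 SD above the mean of log10 depth, also held these transcripts. At 7 dpi 714 such mesenchymal-gate barcodes held 3810 UMIs of the 6 members, or 187.8 CPM, with 203 barcodes (28.4%) positive. In the Uninjured library 178 such barcodes held 53 UMIs, 91.4% of the 58 in the gate, and the kept cells 3. In the 3 dpi library 270 held 80 of 162 UMIs, and at 1 dpi 93 held 0. The low Uninjured level of 0.0405 CPM therefore holds for the kept cells, and with every deposited barcode it was 0.630 CPM (0.478 to 0.814), beside 121.7 CPM at 7 dpi.

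Other cell types of the 7 dpi library, gated by their surface or lineage genes with under 10 Col1a1 UMIs, had little of Gzmd to Gzmn. The mesenchymal gate, with 15325 of the 20300 kept cells, held 90.97% of all UMIs of the 6 members in those cells. The far smaller NK gate held 0.456%. A further 784 UMIs lay in 1442 cells with 10 or more Col1a1 UMIs and a Ptprc UMI, which belong to no gate, and 48 in 2225 ungated cells with less Col1a1. In the 406 NK cells (Klrb1c or Ncr1 detected, Cd3e at 0 UMIs) the 6 members had 45 UMIs, of which 36 were Gzmc, 4 Gzmd, 4 Gzme and 1 Gzmg. The NK level of the sum was 40.1 CPM, beside 108.9 CPM in the mesenchymal gate. Gzmc was higher in NK cells, at 32.1 against 11.5 CPM. Of the NK cells 24 (5.91%) were positive, or 3.56% of 393 after thinning. CD8 T cells had 0 of 52, which allows up to 5.77%, CD4 T cells 0 of 41, and the 205 T cells outside both gates 6 UMIs.

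Other cell types, gated with under 10 Col1a1 UMIs, had values at or near 0. This limit keeps barcodes with much mesenchymal RNA out of their gates in advance. Barcodes with genes of these types, at least 10 Col1a1 UMIs and no Ptprc fell in the mesenchymal gate, and their subclusters are described below. Of 180 monocytes and macrophages (median depth 4501 UMIs) 1 held a UMI, 0.975 CPM (0.0247 to 5.43). In endothelial cells (3008.5 UMIs) it was 0 of 52, which allows up to 5.77%, and the CPM interval reached 15.7. In B cells (1580 UMIs) it was 0 of 29, which allows up to 10.3%, and in neutrophils 0 of 84, which allows up to 3.57%. Myogenic cells (4103 UMIs) had 6 UMIs in 255 cells, 5.02 CPM (1.84 to 10.9). The mesenchymal level beside them was 108.9 CPM at a median depth of 3346 UMIs.

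**Figure D2:**
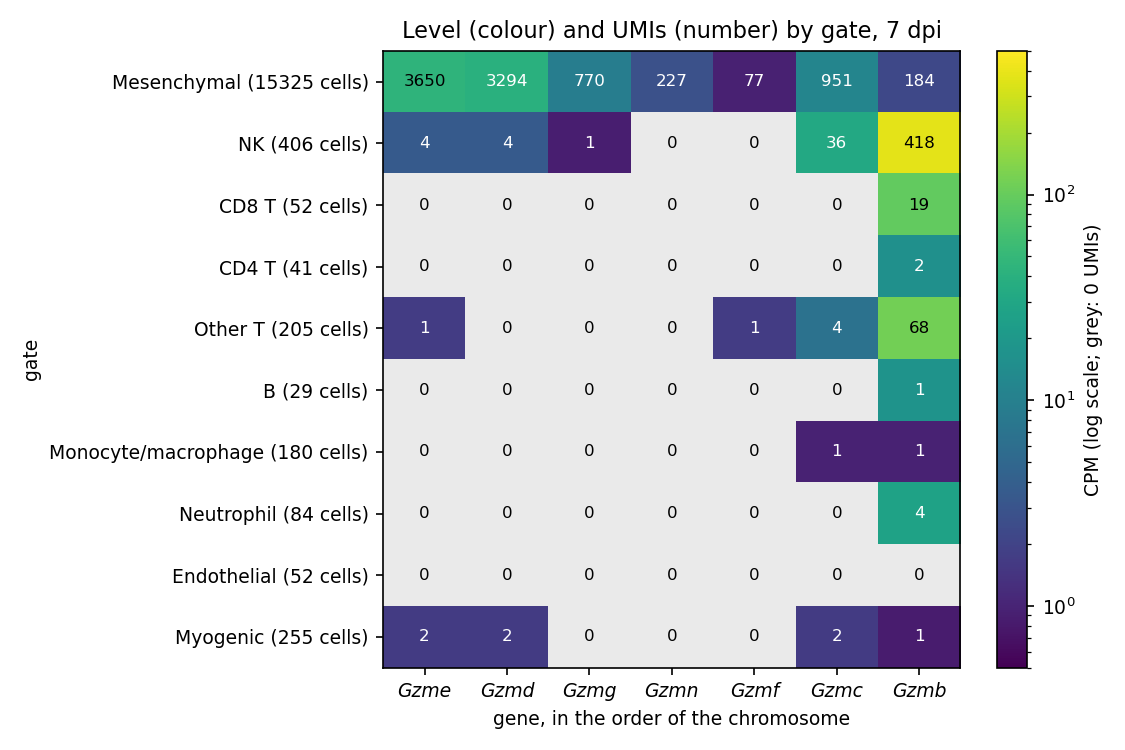
Granzyme genes (columns, in chromosome order) in the gated cell types at 7 dpi (rows, with cell numbers), with colour for CPM on a log scale, grey for 0 UMIs and the UMIs printed in each field. Gzmb was highest in NK cells at 373 CPM (418 UMIs), whereas Gzmd and Gzme were highest in mesenchymal cells at 40.0 and 44.3 CPM.

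Gzmb had the opposite distribution. NK cells held 312, 1923, 904 and 418 Gzmb UMIs in 108, 412, 653 and 406 cells of the Uninjured, 1, 3 and 7 dpi libraries, or 724, 868, 330 and 373 CPM. The Uninjured and 1 dpi levels were the high ones. The level at 1 dpi was 1.20-fold the Uninjured (1.06 to 1.36), that at 3 dpi 0.380-fold that of 1 dpi (0.351 to 0.411), and that at 7 dpi 1.13-fold that of 3 dpi (1.00 to 1.27). The positive share of NK cells was 65.7%, 68.0%, 43.6% and 35.5%, and after thinning 44.4%, 41.6%, 19.6% and 22.4%.

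CD8 T cells held 62, 265, 159 and 19 Gzmb UMIs in 55, 151, 145 and 52 cells, or 214, 326, 308 and 95.2 CPM. The 7 dpi level was 0.309-fold that of 3 dpi (0.181 to 0.498). CD4 T cells held 0, 18, 31 and 2 UMIs. Of the Gzmb UMIs in all kept cells, NK cells held 77.04%, 78.39%, 59.99% and 47.18% in order of time. For CD8 T cells the shares were 15.31%, 10.80%, 10.55% and 2.14%. Cells of no gate held 19.24% at 3 dpi and 21.11% at 7 dpi. Mesenchymal cells held 20.77% at 7 dpi, and T cells outside the CD4 and CD8 gates 7.67%. NK cells thus held most Gzmb UMIs up to 3 dpi, and the largest of these shares at 7 dpi. Gzmc was the member with a lymphocyte source as well, at 0, 29, 34 and 36 UMIs in NK cells, or 0, 13.1, 12.4 and 32.1 CPM, with a 7 dpi level 2.59-fold that of 3 dpi (1.57 to 4.26). In mesenchymal cells Gzmc was at 0 UMIs at 1 dpi, when NK cells already held 29.

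The ratio of Gzmc to Gzmb UMIs was 0.0151 in NK cells at 1 dpi, 0.0376 at 3 dpi and 0.0861 (0.0595 to 0.121) at 7 dpi, and 5.17 (4.41 to 6.09) in mesenchymal cells at 7 dpi. For Gzmd over Gzmb it was 0.00957 in NK cells (0.00260 to 0.0247) and 17.9 in mesenchymal cells (15.4 to 20.9). These UMIs are among the values that chose the genes, and the ratios are a description of 1 library at each time.

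Transcripts of other cell types were present at low levels in the mesenchymal gate, and most of their marker lists were highest at 7 dpi. Of the mesenchymal markers, 7 of 7 were found in at least 20% of 7 dpi cells, at a summed 39349 CPM. Of the NK, T, B, monocyte/macrophage, neutrophil, mast, endothelial and myogenic lists, 0 genes reached 20% of cells and none was at 0. The summed NK list was 0.351, 2.70, 3.49 and 16.4 CPM over the Uninjured, 1, 3 and 7 dpi libraries, and the T list 0.514, 2.48, 3.07 and 20.5. The monocyte/macrophage list stood at 117 CPM and the neutrophil list at 88.7 CPM at 7 dpi. The neutrophil and B lists were instead highest at 1 dpi, at 130 and 4.82 CPM, against 88.7 and 3.67 CPM at 7 dpi. Gzma, the commonest lymphocyte granzyme, had 35, 20, 88 and 1086 UMIs and reached 13.2 CPM, beside 4183 CPM in NK cells.

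The members were set beside these transcripts. The ratio of Gzmb to Gzma in mesenchymal cells at 7 dpi was 0.169 (0.144 to 0.198), beside 0.0891 (0.0804 to 0.0985) in NK cells, and of Gzmb to Nkg7, an NK granule protein, 0.217 beside 0.175, and of Gzmb to Prf1 1.33 (1.06 to 1.67) beside 0.860 (0.753 to 0.982). In mesenchymal cells with 0 UMIs of 7 lymphocyte genes (Cd3e, Cd3g, Nkg7, Klrb1c, Ncr1, Gzma and Prf1) Gzmb fell from 2.23 to 1.26 CPM. In the same cells Gzmc was at 11.5, Gzmd at 39.4, Gzme at 44.6 and Gzmg at 9.20 CPM, near their levels in the whole gate. In the 8000 cells (52.2%) with 0 UMIs of 10 genes of vessels, blood, nerve and muscle, a gate chosen after the data were seen, the 6 members stood at 113.6 CPM and 14.2% of cells were positive. Gzmg differed, at 5.88 CPM in those cells against 9.35 CPM. The part of free or carried-over lymphocyte RNA in the Gzmb values was not tested.

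Within mesenchymal cells at 7 dpi the transcripts were unevenly spread over subclusters, which were built by Leiden clustering without the granzyme and mast cell protease genes of chromosome 14. The subcluster led by Actg2, Acta2, Tagln, Scx and Cdkn2a, genes of smooth muscle contraction, tendon identity and cell cycle arrest, held 1157 cells (7.55%) and 3749 UMIs (41.8%) of the 6 members. Its level was 374.4 CPM, and 39.1% of its cells were positive, or 18.2% after thinning. The subcluster led by the histone and mitosis genes Hist1h1b, Hist1h2ae, Birc5, Top2a and Mki67 held 1378 cells (8.99%) and 1427 UMIs (15.9%) at 183.0 CPM. These subclusters together held 57.7% of the UMIs. Another subcluster of cell cycle genes, led by Hist1h2ap and Ube2c, had 15 UMIs in 256 cells, 7.58 CPM. At a clustering resolution of 0.5 the subcluster led by Hist1h2ap and Ube2c instead had 507 UMIs in 313 cells of 7 dpi. Its 175.8 CPM was the highest level at that resolution, where no subcluster was led by Actg2. The contrast between the cell cycle subclusters thus depended on the resolution.

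A subcluster led by Ptn, Mest, Fbn2 and Mdk had 1230 UMIs in 1986 cells, 65.6 CPM. The subcluster led by the cartilage genes Col2a1, Snorc, Hapln1 and Col10a1 had 1141 UMIs in 3138 cells, 73.1 CPM. Both were below the level of all mesenchymal cells, 108.9 CPM. At a clustering resolution of 0.5 the Ptn and Mest subcluster instead held 2493 cells and stood at 164.4 CPM. Lower levels still were found in the subclusters led by Kera, Cilp2 and Chad (13.97 CPM in 156 cells) and by Bglap and Ibsp of osteoblasts (13.5 CPM in 168 cells). The tendon genes Tnmd and Thbs4 were also among the leading genes of the Kera subcluster. Those led by Cxcl5 and Prg4 (10.1 CPM in 357 cells) and by Pi16 and Dpp4 of the adventitia (3.33 CPM in 124 cells) were low as well. The subcluster led by G0s2, Ccl11, Smoc2 and Col15a1 had 0 UMIs in 169 cells.

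Some subclusters were led by genes of other cell types. Those led by Cd74, Lyz2 and H2-Aa of myeloid cells (1337 cells), by Igkc, Igha and Jchain of plasma cells (2521 cells), by S100a9 and S100a8 of neutrophils (306 cells) and by Fabp4, Cldn5 and Pecam1 of vessels (200 cells) stood at 126.2, 70.8, 156.5 and 100.2 CPM. These levels lay on both sides of the 108.9 CPM of the gate as a whole. The Igkc subcluster also had Nkg7 and Gzma, genes of NK and cytotoxic T cells, among its leading genes. Subclusters with the mural genes of vessels were low, at 37.5 CPM for the one led by Myh11 and Tagln (387 cells) and 25.2 CPM for the one led by Rgs5 (871 cells). The 3 dpi UMIs lay mainly in a subcluster led by the cell cycle genes Hist1h2ap and Ube2c (44 UMIs in 479 cells, 4.83 CPM) and in the Cxcl5 and Prg4 subcluster (31 UMIs in 1619 cells, 1.31 CPM).

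**Figure D3:**
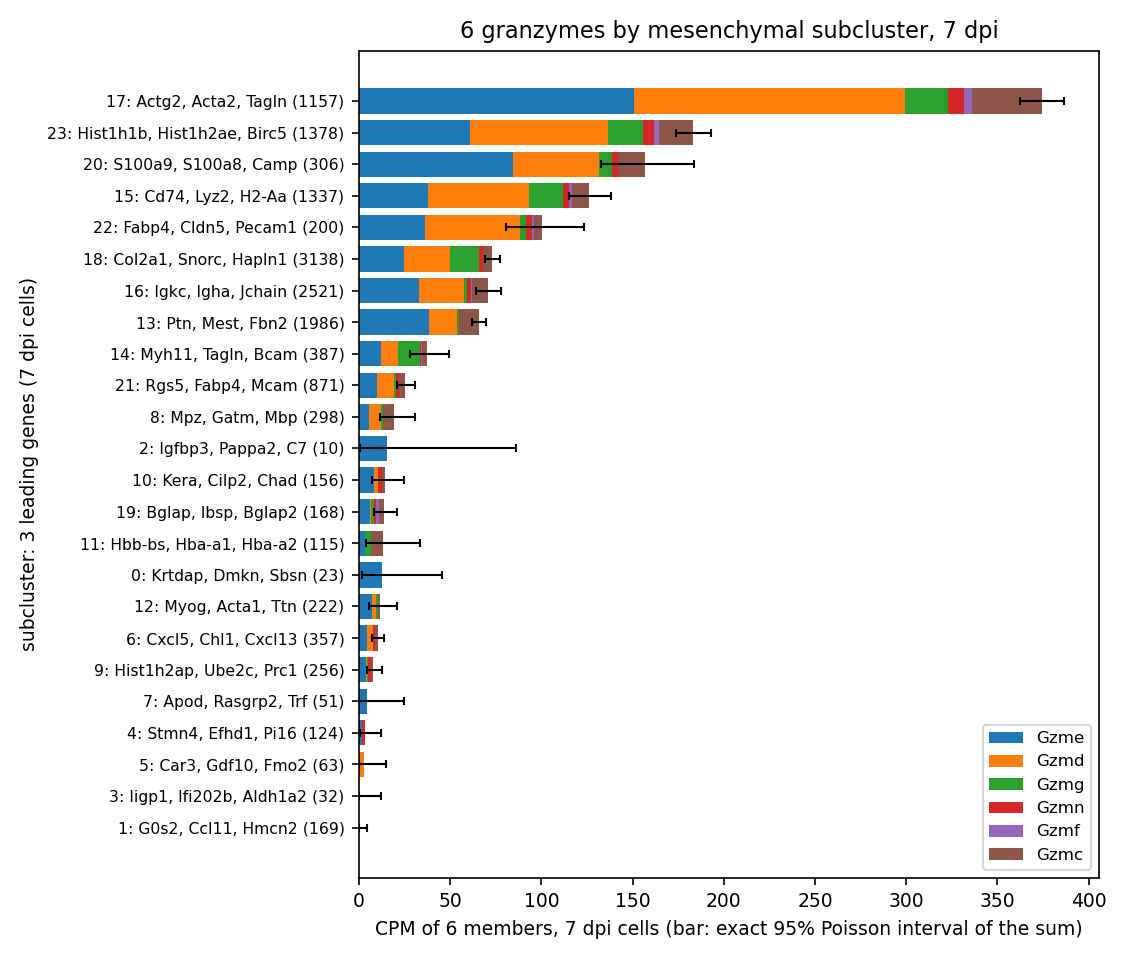
CPM of the 6 granzyme genes other than Gzmb, as stacked bars with 1 colour per gene, in subclusters of 7 dpi mesenchymal cells named by their leading genes, with exact 95% counting intervals of the sum. The Actg2 and Acta2 subcluster stood highest at 374.4 CPM, and those led by Kera, by Bglap and by Pi16 were at 13.97 CPM or below.

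Gates on single genes, which overlap, also placed the transcripts in cells with Acta2. Cells with at least 5 UMIs of Acta2, smooth muscle actin, were 23.4% of 7 dpi mesenchymal cells and held 75.5% of the UMIs of the 6 members, at 238.5 CPM in 3580 cells. Cells with Lrrc15 and Tnn and under 10 Col2a1 UMIs, the osteochondral progenitor genes, were 14.2% of cells with 55.4% of UMIs, at 253.0 CPM. Cells with at least 2 UMIs of Tnmd, a tendon membrane protein, were 10.3% of cells with 34.3% of UMIs, at 269.7 CPM. The 491 cells that passed both the Acta2 and the Tnmd gates were 3.20% of cells and held 26.8% of the UMIs, at 480.9 CPM.

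Cells gated on cartilage or adventitial genes were lower, and cycling cells were near the level of all cells at 115.3 CPM (1158 cells). Cells with at least 10 Col2a1 UMIs stood at 65.7 CPM (3308 cells), with Pi16 at 63.4 CPM (3062 cells), with Col10a1 of hypertrophic cartilage at 41.3 CPM (777 cells), and cells in none of 7 such gates at 39.8 CPM (5216 cells). After thinning, 11.9%, 11.8% and 10.7% of the Acta2, progenitor and Tnmd gates were positive, against 4.94%, 4.64%, 4.30% and 3.34% of the cycling, Col2a1, Pi16 and Col10a1 gates and 3.69% of cells in none. At 3 dpi the level was 8.10 CPM (35 UMIs in 197 cells) in progenitors, 5.29 CPM (44 UMIs in 385 cells) with Acta2 and 1.46 CPM (26 UMIs in 1384 cells) with Pi16. The Tnmd gate, high at 7 dpi, had 2 UMIs in 129 cells at 3 dpi, 1.37 CPM (0.166 to 4.96).

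The mix of members differed between subclusters. Gzmg made up 8.59% of the UMIs of the 6 in all 7 dpi mesenchymal cells. It was 21.8% in the Col2a1 subcluster (249 UMIs in 64 cells, 20.5% without the highest cell), 6.32% in the Actg2 and Acta2 one and 1.46% in the Ptn and Mest one (18 UMIs in 14 cells). Gzme was 58.4% in the Ptn and Mest subcluster, 40.2% in the Actg2 and Acta2 one and 33.7% in the Col2a1 one. Gzmc was 15.4%, 10.3% and 7.19% in the same order. Among the subclusters compared here, the Col2a1 cells thus had the most Gzmg in their mix and the Ptn and Mest cells the most Gzme and Gzmc.

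Members other than Gzmb were detected in the same cells. At 7 dpi 1403 mesenchymal cells held 1 of the 6 genes, 427 held 2, 190 held 3, 63 held 4, 22 held 5 and 3 held all 6, with median depths from 4261 UMIs for 1 gene to 18099 for all 6. Of cells with Gzmd 50.2% had Gzme, against 4.68% of cells without Gzmd (493 cells with both). Of cells with Gzmg 69.0% had Gzme and 64.8% had Gzmd. Of the 36 Gzmf cells 25 had Gzmd.

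Gzmc cells had Gzme in 40.6% of cases, against 6.22% of the other cells. Gzmb was apart, since 15.2% of its 158 cells had Gzme, against 7.52% of the others, and 21 had Gzmd. After thinning to 1000 UMIs, 28.0% of Gzmd cells had Gzme against 2.19% of the rest (103 of 368 cells), and 52.7% of Gzmg cells had Gzmd against 2.28%. Of 57 Gzmb cells 1 (1.75%) then had Gzmd, against 2.54% of the rest, and 4 (7.02%) had Gzme, against 2.83%. Over the 15325 cells Pearson's r of log UMIs per 10000 was 0.479 for Gzmd with Gzme, 0.391 for Gzmd with Gzmg and 0.252 for Gzmc with Gzme, and 0.00347 to 0.0191 for Gzmb with the other members. Cells share a library and differ in depth, and shared windows of Gzmd, Gzme and Gzmg can add to their joint detection, a part that was not tested.

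**Figure D4:**
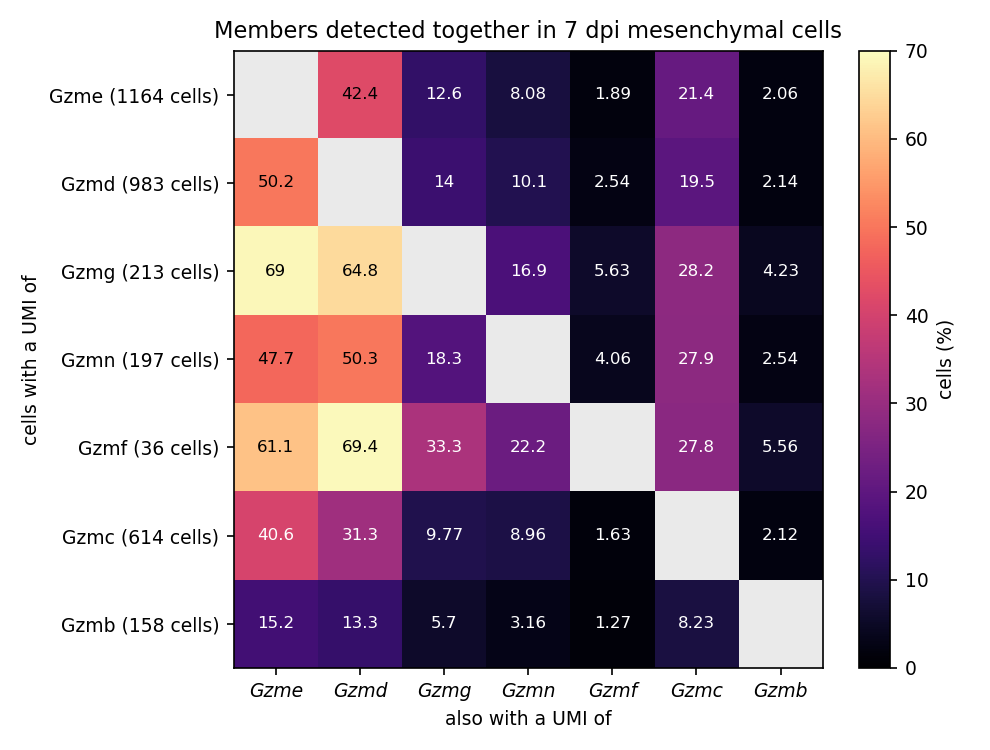
Percentage of 7 dpi mesenchymal cells with a UMI of 1 granzyme gene (rows) that also had a UMI of another (columns). Gzme cells had Gzmd in 42.4% and Gzmd cells had Gzme in 50.2%, whereas the Gzmb row held 15.2% for Gzme and 13.3% for Gzmd.

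The genes whose levels were most like the sum of the 6 members, over 15325 cells and among 9690 genes with at least 500 UMIs, were Actg2 (r = 0.249), Acta2 (0.223), Tagln (0.208), Tnc (0.203), Tpm2 (0.199), Scx (0.197), Csrp2 (0.163), Lrrc15 (0.159), Tpm1 (0.150) and Enpp1 (0.149). The median r of all genes was 0.00730 and the 99th percentile 0.0729. Actg2, Acta2, Tagln, Tpm1 and Tpm2 encode actins and actin-binding proteins of contractile cells, Tnc a matrix glycoprotein of tendon and wounds, and Scx the tendon transcription factor scleraxis. The correlations are weak and describe 1 library.

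These genes were compared between the 600 cells with 3 or more UMIs of the 6 members (median depth 8182 UMIs) and the 13217 cells with none (3148). The 10 genes were picked for their correlation with the same sum over the same cells, so their ratios describe that choice. Actg2 stood at 4.79-fold the level of the cells with none, at 60.5% against 16.2% of cells, Scx at 3.80-fold (3.55 to 4.07), Acta2 at 2.73-fold, Enpp1 at 2.66-fold and Lrrc15 at 2.47-fold. In the deepest of the 5 depth groups alone, which held 281 of the 600, Actg2 was at 4.66-fold, Scx at 4.05-fold and Acta2 at 2.83-fold. By library, Actg2 in mesenchymal cells was at 0.0270, 0, 4.19 and 112 CPM in the Uninjured, 1, 3 and 7 dpi libraries, and Scx at 10.8, 2.52, 4.97 and 69.0 CPM. Actg2 and the granzymes were thus both near 0 before 3 dpi and highest at 7 dpi.

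Of 16414 genes with at least 10 UMIs in either set of cells, 2.77% were at least 2-fold higher in granzyme-positive cells. At least 2-fold lower were 13.4%. The positive cells held 5610751 UMIs against 67338060 in the cells with none, so genes of few UMIs readily fall to 0 in the smaller set. With a minimum of 100 UMIs the shares were 0.908% and 6.38%. The 7 members, which define the sets or share their cells, are not read against these shares. The contractile list (Acta2, Tagln, Myl9) had 3 of 3 genes at least 2-fold higher, with a median of 1.45 on the log2(CPM + 1) scale beside -0.03 for all genes. The tendon list had 2 of 4, Scx and Tnmd at 2.65-fold, and not Thbs4 at 0.881-fold. Of the osteochondral progenitor list 1 of 4 was past 2-fold, Lrrc15, while Tnn was at 1.55-fold, Postn at 1.23-fold and Runx2 at 1.17-fold. The chondrocyte list had 4 of 6 at least 2-fold lower, Matn1 at 0.227-fold, Col2a1 at 0.291-fold, Col9a1 at 0.357-fold and Comp at 0.359-fold, with Acan at 0.654-fold and Sox9 at 0.975-fold. The adventitial list had 3 of 3 at least 2-fold lower, Pi16 at 0.199-fold, Cd34 at 0.281-fold and Dpp4 at 0.335-fold.

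**Figure D5:**
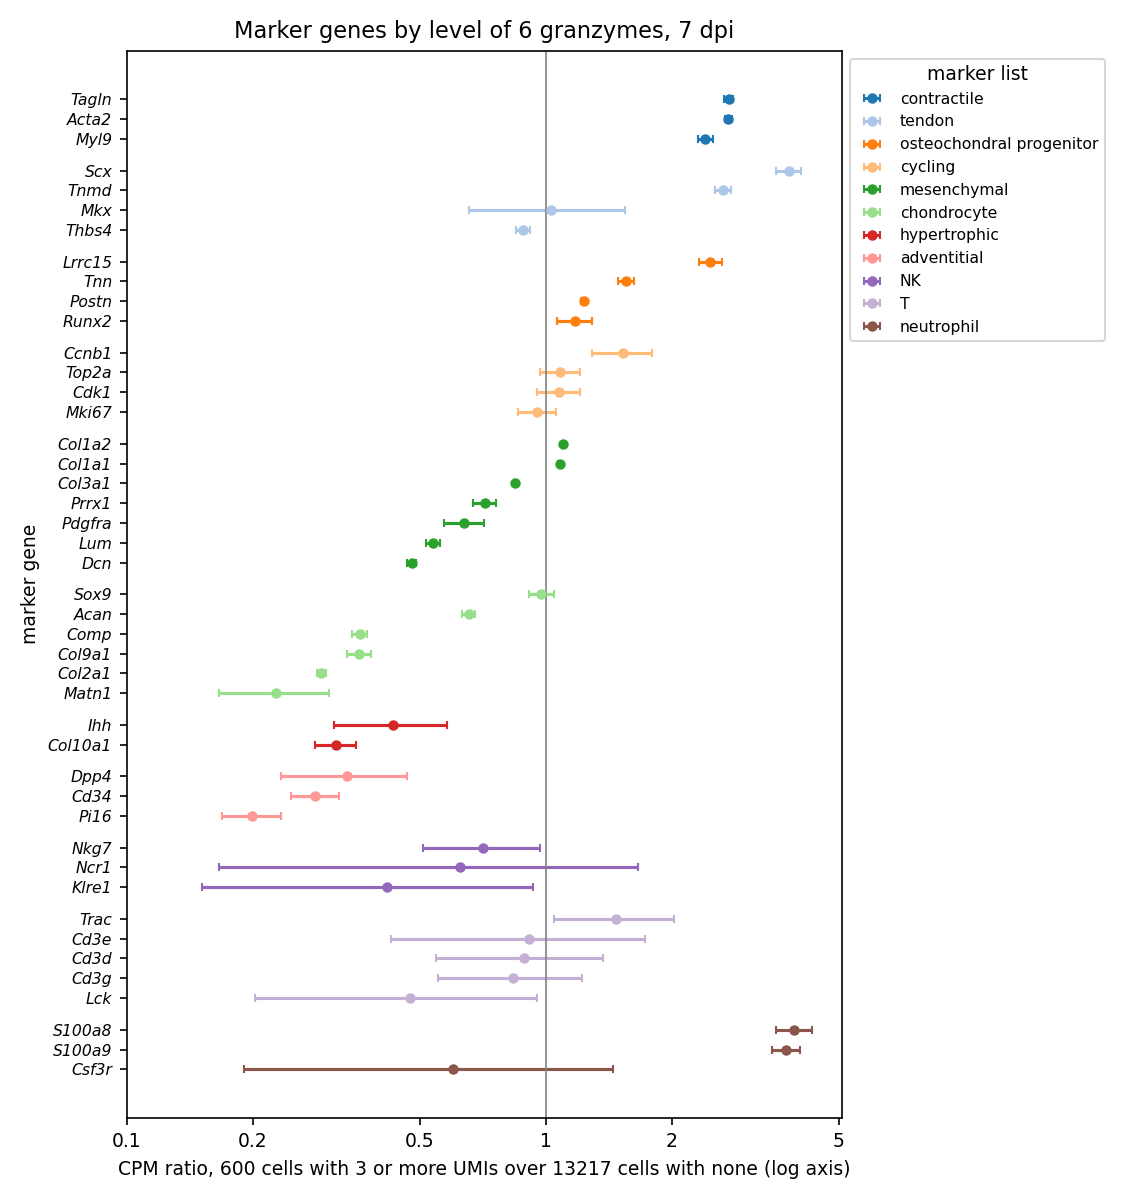
Ratio (log axis) of the level of marker genes in the 600 mesenchymal cells of 7 dpi with 3 or more granzyme UMIs over the 13217 with none, with exact 95% counting intervals. The contractile genes and the tendon genes Scx and Tnmd lay above 1, up to 3.80 for Scx. The tendon genes Mkx and Thbs4 lay at 1.03 and 0.881, and the adventitial gene Pi16 at 0.199.

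The machinery that lymphocytes use with granzymes was at mixed levels in the granzyme-positive cells. Of 11 cytotoxic granule genes 0 were at least 2-fold higher, beside 2.77% of all genes, and 2 (Prf1 and Fasl, the Fas ligand) at least 2-fold lower, beside 13.4%. Fasl had 0 against 14 UMIs, too few to give a fold. Prf1, perforin, was at 0.308-fold (3 against 117 UMIs, 0.0626 to 0.922) and Gzma at 0.330-fold (0.21 to 0.49), and in the deepest group Prf1 had 0 against 8 UMIs and Gzma was at 0.530-fold (0.167 to 1.29). Nkg7 depended on depth, at 0.710-fold over all cells and 2.42-fold (1.29 to 4.29) in the deepest group. There Unc13d, which primes granules for release, was at 3.71-fold (5 against 11 UMIs, 1.01 to 11.6), Rab27a at 1.93-fold (0.822 to 4.07) and Stxbp2 at 1.77-fold (0.710 to 3.85), while over all cells they were at 1.04-fold, 0.964-fold and 0.874-fold. The genes for Lamp1, a lysosomal membrane protein, and Ctsc, the protease that activates pro-granzymes, were at 1.00-fold and 1.03-fold over all cells and at 0.969-fold and 1.08-fold in the deepest group. In all 7 dpi mesenchymal cells Prf1 stood at 1.68 CPM beside 433 in NK cells, Ctsc at 22.1 beside 60.6, and Srgn, the granule proteoglycan serglycin, at 33.8 beside 794. Lamp1 stood at 294 CPM in mesenchymal cells, so Lamp1 and Ctsc were well measured there and Prf1 was low.

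Between 7 and 3 dpi, 5 of 11 granule genes (Prf1, Nkg7, Ctsw, Rab27a and Stxbp2) were at least 2-fold higher in mesenchymal cells, beside 16.9% of all genes, as were Gzma and Gzmk of the 3 granzymes that lie on other chromosomes. The median granule gene was 0.71 higher on the log2(CPM + 1) scale. Beside the same 16.9%, the NK and T lists each had 5 of 5 genes at least 2-fold higher, the contractile list 3 of 3 and the chondrocyte list 6 of 6. The adventitial list had 3 of 3 at least 2-fold lower, and the share of all genes in that direction was not computed. The part of carried-over lymphocyte RNA in the granule genes was not tested.

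Of the 5 inhibitors of granzymes or related proteases, 0 were at least 2-fold higher in the granzyme-positive cells, beside 2.77% of all genes, and 3 at least 2-fold lower, beside 13.4%. Serpinb9, which inhibits granzyme B, was at 0.876-fold and stood at 16.9 CPM in 7 dpi mesenchymal cells, while Serpina3n, an extracellular inhibitor of granzyme B, was at 0.227-fold (0.147-fold in the deepest group) and 63.5 CPM. Serpinb6a was at 0.922-fold and 350.0 CPM. Among the receptors of IL-2 and IL-15, cytokines that induce granzymes in lymphocytes, Il2rg, the common gamma chain, was at 2.90-fold (2.33 to 3.57), in 84 of the 600 cells against 3.16% of those with none, and at 3.96-fold (2.99 to 5.20) in the deepest group. Il2rb, the chain shared by both receptors, was at 0.720-fold over all cells and 2.88-fold (1.36 to 5.70) in the deepest group. Il2rg stood at 8.06 CPM, Il2rb at 4.29, Il15ra at 11.0 and Il2ra at 0.984 CPM in 7 dpi mesenchymal cells.

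Of the T list, Cd3e, Cd3d and Cd3g differed with depth in the same way as Nkg7 and Il2rb, while Trac and Lck did not. Over all cells Cd3e was at 0.909-fold, Cd3d at 0.886-fold, Cd3g at 0.837-fold and Trac at 1.47-fold (1.05 to 2.02) in the positive cells. In the deepest group Cd3e was at 3.27-fold (8 against 20 UMIs, 1.24 to 7.74) and Cd3d at 3.50-fold (1.78 to 6.57). Cd3g was at 3.55-fold (1.99 to 6.12) and Trac at 1.61-fold (1.00 to 2.48) there. These genes of the T cell receptor complex thus stood higher in positive cells of that group. Of the 600 positive cells of all depths, 8, 16, 15 and 38 held Cd3e, Cd3d, Cd3g and Trac, so the ratios rest on few barcodes. Lck, also of the T list, was at 0.475-fold (0.202 to 0.955) over all cells. In the deepest group Lck was at 0.933-fold (4 against 35 UMIs, 0.241 to 2.61). The NK genes Klrb1c, Ncr1 and Eomes had 0 UMIs in the deep positive cells, against 10, 7 and 4 in the deep cells with none. Their ratio intervals reached 3.64, 5.66 and 12.4, so these counts are too small to set NK genes apart from T genes. Of the same list Klre1 was at 0.628-fold (2 against 26 UMIs, 0.0722 to 2.51) and Nkg7 at 2.42-fold there. Over all cells 3 of 5 NK genes and 1 of 5 T genes were at least 2-fold lower, beside 13.4% of all genes, and 0 higher, beside 2.77%. The part of lymphocyte RNA or of attached lymphocytes in the deep positive cells was not tested. Of the neutrophil list S100a8 was at 3.91-fold and S100a9 at 3.74-fold, the former in 6.00% against 3.71% of cells, while Csf3r had 5 against 100 UMIs, 0.60-fold (0.191 to 1.45). S100a8 and S100a9 thus were higher in the positive cells, and the part of carried-over neutrophil RNA in their values was not tested.

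The neighbouring proteases of the cluster, which mast cells, basophils and neutrophils express, were mostly near 0 in mesenchymal cells. At 7 dpi Cma2, Mcpt1 and Mcpt9 had 0 UMIs, Mcpt2 2, Ctsg (cathepsin G) 6 and Mcpt8 20 UMIs in 16 cells. Mcpt4 and Cma1, both connective tissue mast cell chymases, stood at 16.2 and 14.9 CPM. The mast cell list, which includes Mcpt4, stood at 25.0 CPM. In NK cells at 7 dpi Cma1 stood at 57.1 CPM, in 11.3% of cells, and Mcpt4 at 2.68 CPM. In granzyme-positive cells Mcpt4 was at 0.463-fold and Cma1 at 0.722-fold. In the deepest group the direction turned, to 3.21-fold (11 against 28 UMIs, 1.44 to 6.65) and 8.55-fold (22 against 21 UMIs, 4.49 to 16.3). Of the 600 positive cells only 13 held Mcpt4 and 14 held Cma1, so these ratios rest on few barcodes. Mcpt8, a basophil protease gene at chr14:56082166-56085273, had 14 UMIs in the 600 positive cells against 5 in the 13217 with none, a ratio of 33.6 (11.4 to 119), and in the deepest group 9 against 0 UMIs. It lies on the Gzme side of the cluster, with Ctsg between it and Gzme. Ctsg had 0 UMIs in the positive cells against 6 in those with none, too few to give a fold.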

How the data were processed

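Single-cell suspensions of tibial muscle were profiled on the 10x Genomics platform in 4 libraries, 1 per time point. The authors deposited raw UMI counts per gene and barcode. The submitters' processing notes name Cell Ranger 5.0.0, mm10 and Seurat 3.1.1. The methods of the study include down-sampled reads, and it is not stated if the counts were made before that step. Whether transcripts were read at the 3′ or 5′ end is not given in the sources used here, so counts were not scaled to length.

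Cells within 2 SD of the mean of log10 UMIs and log10 genes and with at most 10% mitochondrial UMIs were kept, and the top 7.5% by Scrublet score in each library were removed as doublets. UMIs were summed per gate and library and divided by all UMIs of that gate to give CPM. Gates other than the mesenchymal one needed under 10 Col1a1 UMIs. Intervals were exact Poisson (levels), Clopper-Pearson (shares) and conditional binomial (ratios). A gene at 0 was set against a floor of 3 UMIs per library. Cells were thinned at random to 1000 UMIs to compare shares across depths. Subclusters used 2000 variable genes, 30 components, 15 neighbours and resolution 1. A gene was set against all others as past 2-fold where it had at least 10 UMIs in either set of cells. Positions came from GENCODE M21, which matched 99.6% of 32285 gene IDs, and promoters from RefSeq (GRCm38.p6).

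The members and lists were chosen with earlier results of these data known. Genes named were the 7 members, genes of the fixed lists (other granzymes, neighbours in the cluster, granule genes, inhibitors, receptors and cell type markers), the 10 genes most correlated with the members over cells, and up to 5 leading genes of each subcluster. Alternatives covered the cell limits, the Col1a1 minimum, the gates, thinning, the scaling, the resolution and the background minimum. Ratio intervals were tested on simulated counts drawn independently for each gene, without the concentration of UMIs in few cells described above. Thinning was tested on simulated cells of equal composition and unequal depth. The intervals of levels and shares were not tested in this way. Python 3.11.15, numpy 2.4.6, scipy 1.17.1, scanpy 1.11.5, R 4.3.3 and edgeR 4.0.16 (TMM factors only) were used.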

Additional observations from a re-analysis of the deposited data

Results flagged for a closer look

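The barcodes above the upper depth limit, which the kept cells leave out, held 3810 UMIs of Gzmc, Gzmd, Gzme, Gzmf, Gzmg and Gzmn in the 7 dpi mesenchymal gate, a signal outside the main measurement and above that of the other 3 libraries. They were 714 barcodes with 20368 to 58769 UMIs each (median 26837.5), and the members stood at 187.8 CPM against 108.9 CPM in the kept cells. Their mix was close to that of the kept cells, with Gzme at 39.9% against 40.7% of the 6 members, Gzmd at 38.7% against 36.7%, Gzmg at 9.63% against 8.59%, Gzmc at 9.32% against 10.6%, Gzmn at 2.26% against 2.53% and Gzmf at 0.210% against 0.859%. The same barcodes of the Uninjured library held 22 Gzmn, 17 Gzme, 9 Gzmc and 5 Gzmd UMIs in 24 of 178 barcodes, those of 3 dpi held 80 UMIs in 25 of 270, and those of 1 dpi held 0. How many of these barcodes held more than 1 cell was not tested.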

How the results depend on the processing

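With 1 library per time point no value has a replicate check and no library could be left out. Depth limits the positive shares. No paired analysis was possible because each group had 1 sample. The summed level of the 7 members was 0.108, 0.360, 2.17 and 111.2 CPM in the Uninjured, 1, 3 and 7 dpi libraries, and the log2 ratios were 1.74 (1 dpi over Uninjured), 2.59 (3 over 1 dpi), 5.68 (7 over 3 dpi) and 10.01 (7 dpi over Uninjured). Over all alternatives they ranged from -0.65 to 2.37, 0.45 to 4.80, 5.32 to 6.12 and 7.48 to 10.37. Of the values that answer a comparison 77 stayed the same within their counting interval or margin, 40 moved and 2 reversed, both for 1 dpi over Uninjured, where 8 UMIs stood on each side. With every deposited barcode that ratio was -0.65, 7 over 3 dpi was 5.32 and 7 dpi over Uninjured 7.48, the levels were 0.695 (Uninjured), 3.11 (3 dpi) and 123.9 CPM (7 dpi), and the positive shares 0.410% and 2.30% (Uninjured and 3 dpi). With at least 20 Col1a1 UMIs it was -0.018 and 3 over 1 dpi 4.80, the levels 0.0852 (1 dpi) and 113.9 CPM (7 dpi), and the shares 0.113%, 2.22% and 15.9% (1, 3 and 7 dpi). Limits on the linear scale gave 1.70 and 106.9 CPM and shares of 1.32% and 13.98% (3 and 7 dpi). The mean over cells gave 1.67 and 96.5 CPM. The gate without 10 genes of other cell types, chosen after seeing the data, gave 0.724 (1 dpi) and 115.2 CPM (7 dpi) and 1.38 for 3 over 1 dpi. Thinning gave shares of 0.0393%, 0.103%, 0.141% and 6.10% in order of time and log2 ratios of 0.45 (3 over 1 dpi), 6.12 (7 over 3 dpi) and 7.97 (7 dpi over Uninjured). Counting cells with at least 2 UMIs gave 0%, 0%, 0.307% and 4.81%. At resolution 0.5 the leading pair of subclusters held 71.7% of the UMIs against 57.7%, and was another pair, led by Ptn, Mest and Mdk (44.7%, 164.4 CPM) and by Igkc, Igha and Tnn (27.0%). With a minimum of 100 UMIs the shares of all genes past 2-fold were 5.04%, 5.95%, 10.7% and 16.1% between libraries, and 0.908% higher and 6.38% lower in granzyme-positive cells. The causes of these shifts were not tested.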
